A study of Mus musculus with 8 samples.

Results

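The 100 protein-coding genes with the most counts in control mouse oocytes are described here, with their levels in oocytes that lack Kiaa1429. They were taken by their mean CPM (counts scaled to library size) over the 4 control libraries, from 21768 protein-coding genes that could be taken among 52502 genes with a counted exon. The choice left out genes of the mitochondrial genome, ribosomal protein genes and 8 named genes (Bmp15, Gdf9, Mos, Alkbh5, Wee2, Oosp1, Ooep and Nlrp5). This removed 9 genes that would have ranked among the highest, 4 of them mitochondrial and 5 of them named. The control level is therefore what chose the genes, and its height is not a finding. At the limit, Tmf1, Rspo2 and Vbp1 stood just inside with mean control levels of 1255, 1249 and 1242 CPM over library totals. Bmp2k, Pcgf6 and Spry4 stood just outside with 1238, 1237 and 1230.3 CPM.

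The cells were fully grown germinal vesicle (GV) oocytes of at least 70 µm from C57BL/6 females, labelled as 20 days old in one place and 3 weeks in another. The females had received 5 IU of PMSG, a gonadotropin that drives follicle growth, 48 hours before, and the medium held milrinone, which keeps oocytes arrested. Controls were Kiaa1429F/+;Zp3-Cre, so that they carried the recombinase and 1 floxed allele. The conditional knockouts (cKO) were Kiaa1429F/F;Zp3-Cre, with both alleles floxed. Zp3-Cre acts through an oocyte promoter that is active during oocyte growth, so the gene is removed in growing oocytes and other ovarian cells keep it. Each group had 4 libraries of about 20 oocytes, and the labels speak of 4 separate experiments without tying libraries to animals. The p-values therefore measure the spread between these libraries. Kiaa1429, now Virma, stood at 67.9 ± 11.2 CPM (mean ± SD, n = 4) in controls and 19.4 ± 3.26 CPM (n = 4) in the cKO (edgeR adjusted p = 1.02e-06), and the groups did not overlap. The labels do not name the floxed exons, so that Virma's RNA level checks the labels only in amount.

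Fully grown oocytes are nearly silent in transcription and live from RNA that was made and stored during growth. This stock serves meiotic maturation and the first divisions of the embryo, and much of it is translated or destroyed in a set order. Virma is a large scaffold of the m6A writer complex. The mark it helps to place, N6-methyladenosine on RNA, bears on RNA stability, splicing and 3' end choice. The comparison asks how the bulk of that stock differs between oocytes that lose 1 copy of Virma and oocytes that lose both.

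The genes with the deepest falls below include groups of neighbouring copies, so the starts of both members of 2 such pairs are shown first. Oog3 and Oog4, which encode leucine-rich repeat proteins of the oogenesin family, lie on chromosome 4. Nlrp9a and Nlrp9c, which encode NACHT and leucine-rich repeat proteins of the oocyte, lie on chromosome 7. Each sequence is RefSeq's, on GRCm38.p6, and runs from 250 bases before the gene's start to 50 bases after it. Capitals mark 3 short motifs searched on both strands, TATAAA, then CCAAT, and the E-box CANNTG, and no 2 marked motifs overlap.
Oog3, chr4:144162602-144162901, minus strand: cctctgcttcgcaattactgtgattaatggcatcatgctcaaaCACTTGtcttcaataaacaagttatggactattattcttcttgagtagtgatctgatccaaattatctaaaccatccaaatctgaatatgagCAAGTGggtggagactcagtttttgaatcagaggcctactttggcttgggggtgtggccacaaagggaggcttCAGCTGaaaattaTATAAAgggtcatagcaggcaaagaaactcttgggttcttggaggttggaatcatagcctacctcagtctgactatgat
Oog4, chr4:143450275-143450574, minus strand: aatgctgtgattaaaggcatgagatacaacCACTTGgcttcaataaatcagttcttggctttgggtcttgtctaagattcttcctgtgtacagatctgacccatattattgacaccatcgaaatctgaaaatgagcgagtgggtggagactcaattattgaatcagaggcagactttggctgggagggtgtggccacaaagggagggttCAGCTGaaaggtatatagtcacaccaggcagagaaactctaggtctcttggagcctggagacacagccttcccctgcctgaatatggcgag
Nlrp9a, chr7:26534773-26535072, plus strand: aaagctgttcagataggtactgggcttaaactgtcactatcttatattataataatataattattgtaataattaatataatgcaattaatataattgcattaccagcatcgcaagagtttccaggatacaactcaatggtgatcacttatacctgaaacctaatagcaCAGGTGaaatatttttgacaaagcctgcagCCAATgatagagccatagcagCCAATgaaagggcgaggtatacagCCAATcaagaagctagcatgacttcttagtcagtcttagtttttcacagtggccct
Nlrp9c, chr7:26403651-26403950, minus strand: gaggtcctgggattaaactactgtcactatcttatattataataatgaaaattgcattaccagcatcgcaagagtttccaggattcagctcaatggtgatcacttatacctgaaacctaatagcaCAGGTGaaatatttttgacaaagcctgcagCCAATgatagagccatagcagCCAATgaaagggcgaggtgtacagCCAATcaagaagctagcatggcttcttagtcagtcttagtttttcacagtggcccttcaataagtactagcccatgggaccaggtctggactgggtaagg
Over 283 aligned bases the 2 Oog windows were identical at 228 (80.6%), and over 253 aligned bases the Nlrp9 windows at 244 (96.4%). Gaps are not counted in these shares. Oog3 held TATAAA at 29 bases before its start, and 3 E-boxes, while Oog4 held 2 E-boxes and no TATAAA. Both Nlrp9 windows held 3 CCAAT boxes and 1 E-box. Of 32851 mouse promoter windows of the same length, 13.6% held TATAAA, 37.4% CCAAT and 72.3% CANNTG. Promoter windows were listed for 76 of the 100 genes, and of their 87 windows 12.6%, 44.8% and 75.9% held these motifs. A match is a description of letters and no measured binding.

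The 100 genes took 25.8% ± 0.918 of all gene counts in controls (n = 4) and 22.8% ± 1.01 in the cKO (n = 4). Controls lay between 25.0% and 27.1% and cKO libraries between 21.6% and 23.9%, so the groups did not overlap, although the choice on control levels favours a higher control share. The 10 highest genes alone took 7.27% ± 0.383 and 5.71% ± 0.296. Each gene was well counted, with 1422 to 72420 counts per library. From here on, the level of a gene in a library is its CPM after TMM scaling, a correction for differences in composition between libraries.

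**Figure D1:**
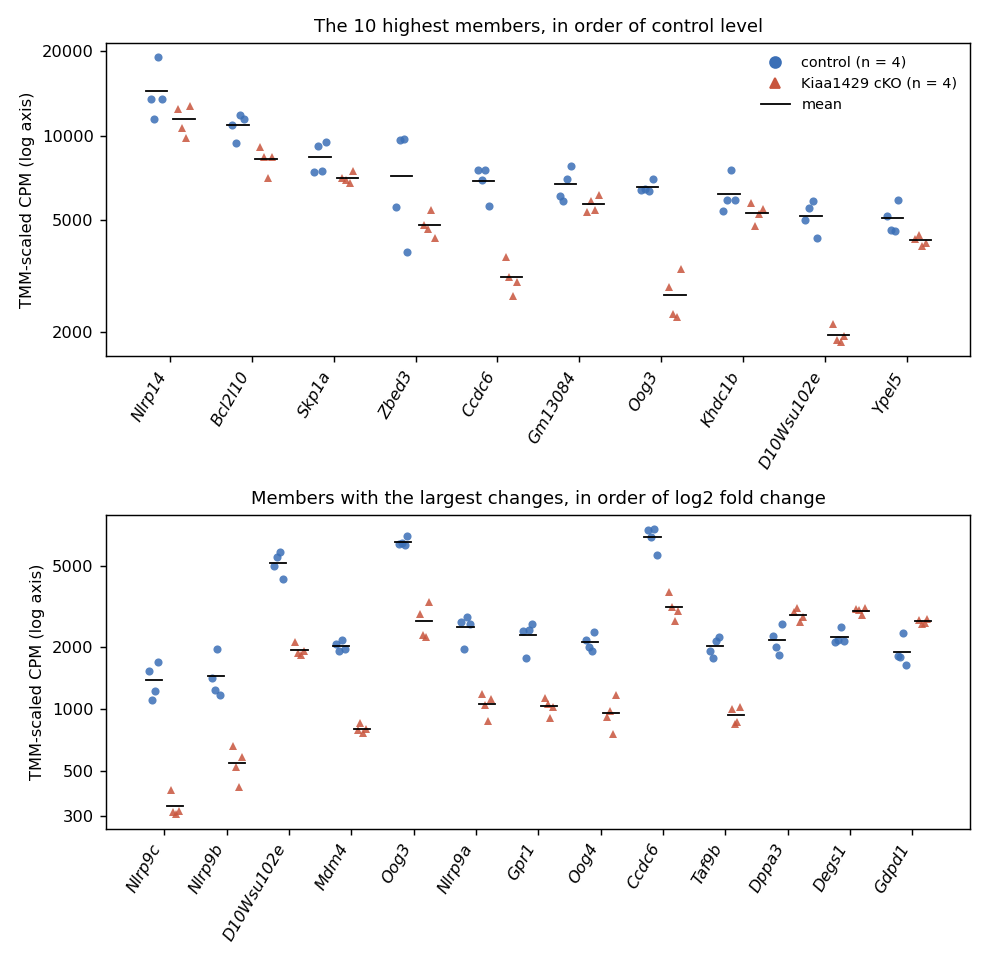
Level of each gene in each library (TMM-scaled CPM, log axis; circles are the 4 controls, triangles the 4 cKO libraries, lines their means), for the 10 genes of highest control level above and for the 10 largest falls and the 3 rises below. The groups lie apart in all 13 genes of the lower panel, while Nlrp14, Skp1a, Zbed3, Gm13084 and Khdc1b overlap in the upper one.

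Nlrp14, an oocyte NLR protein needed by the early embryo, had the most counts in both groups. Its level was 13448, 11486, 19049 and 13528 CPM in controls 1 to 4 and 12445, 10650.5, 9782 and 12786 CPM in cKO 1 to 4. Control 3 stood apart upward and the groups overlapped (log2 fold change -0.33, SE 0.15, edgeR adjusted p = 0.0747). Bcl2l10, an oocyte member of the Bcl-2 family, came second in both groups and measured 10926, 9395, 11846 and 11416 CPM in controls 1 to 4 and 9126, 8365, 7069.6 and 8387 CPM in cKO 1 to 4. Every cKO library lay below every control, and Bcl2l10 fell (log2 fold change -0.40, SE 0.12, edgeR adjusted p = 0.00929). Per kilobase of countable exon, Bcl2l10 had the higher mean control level, 8931 against 4465 CPM per kilobase for Nlrp14.

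Skp1a, the adaptor subunit of SCF ubiquitin ligases, came next and measured 7401, 9205, 7511 and 9509 CPM in controls 1 to 4 and 7042, 6927, 6774 and 7458 CPM in cKO 1 to 4. Its cKO values were close together, those of the controls fell into a lower and a higher pair, and the groups overlapped (log2 fold change -0.25, SE 0.12, edgeR adjusted p = 0.0784). Zbed3, a component of the subcortical maternal complex, measured 5589, 9622, 9764 and 3840.3 CPM in controls 1 to 4 and 4820.5, 4642, 5415 and 4336 CPM in cKO 1 to 4. Controls 2 and 3 stood well above controls 1 and 4, and control 4 lay below every cKO library. Zbed3 was called lower (log2 fold change -0.58, SE 0.23, edgeR adjusted p = 0.0414), a call that was lost in 6 of the 8 fits that left out 1 library, those without control 2, control 3 or any one cKO library, where its log2 fold change lay between -0.81 and -0.41 over all 8. With last exons left out, in a fit with its own scaling, the log2 fold change of Zbed3 was 0.085 (SE 0.15).

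Ccdc6, a coiled-coil protein known as a fusion partner of the RET kinase, measured 7528, 6926, 7566 and 5632 CPM in controls 1 to 4 and 3712, 3137, 2695 and 3010.1 CPM in cKO 1 to 4. The lowest control stood far above the highest cKO library, and Ccdc6 fell to 45.4% of its control level (log2 fold change -1.14, SE 0.13, edgeR adjusted p = 4.92e-06). Oog3, whose start is printed above, measured 6410.3, 6454, 6337 and 7017 CPM in controls 1 to 4 and 2902, 2311, 2255 and 3342 CPM in cKO 1 to 4. The controls were close together, the cKO libraries lay well under them, and Oog3 fell from rank 7 to rank 24 (log2 fold change -1.28, SE 0.14, edgeR adjusted p = 1.86e-06).

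D10Wsu102e, a gene of little known function, measured 5006, 5512, 5829 and 4308 CPM in controls 1 to 4 and 2134, 1880.5, 1840.1 and 1928 CPM in cKO 1 to 4. The groups were far apart (log2 fold change -1.41, SE 0.12, edgeR adjusted p = 2.91e-07). Its annotated last exon holds 121746 countable bases, so that its level per kilobase was 42.3 CPM against a median of 818 over the 100 genes. That exon overlaps Aldh1l2, a mitochondrial folate enzyme that stood at 0.0555 and 0.162 CPM in the 2 groups, and without strand the reads cannot be assigned to a transcript within it.

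Gm13084, a predicted gene on chromosome 4, measured 6102, 5859.5, 7032 and 7816 CPM in controls 1 to 4 and 5342, 5836, 5417 and 6157 CPM in cKO 1 to 4, Khdc1b, a KH domain protein, 5391, 5881, 7555 and 5896 CPM in controls 1 to 4 and 5758, 4779, 5246 and 5475 CPM in cKO 1 to 4, and Ypel5, a subunit of the CTLH ubiquitin ligase, 5164, 4627, 4589 and 5919 CPM in controls 1 to 4 and 4299, 4444, 4061 and 4153 CPM in cKO 1 to 4. The groups overlapped in Gm13084 and Khdc1b and not in Ypel5, and none of the 3 was called (log2 fold change -0.24, edgeR adjusted p = 0.108, log2 fold change -0.22, edgeR adjusted p = 0.156 and log2 fold change -0.26, edgeR adjusted p = 0.068).

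Over all 100 genes, 44 were lower in the cKO, 3 were higher and 53 were not called (edgeR quasi-likelihood test, adjusted p under 0.05 over all genes tested). Among all 10673 tested genes 27.9% were lower and 27% higher, and among the 7991 protein-coding ones 23.5% and 30.4%. The median log2 fold change was -0.26 over the 100, 0.10 over protein-coding genes and 0.02 over all genes, and 81 of the 100 were below 0. In 40 genes every cKO library lay below every control, and in 4 above, where 25.1% and 25% of all tested genes did. With library totals in place of TMM, the median of all genes moved from 0.02 to 0.18 and the counts became 33 lower and 13 higher, where 23.3% and 32.8% of all tested genes were. Under that scaling Bcl2l10, Zbed3, Bpgm, Sall4, Atg5, Nup98, Jpt2, Dazap2, Ubb, Map1b and Tmf1 were no longer called, while Ywhae, Dazl, Trim13, Tiparp, Tubb6, Cdc42, Zar1l, Cd164, St13 and Vbp1 were called higher. The falls below are thus relative to the middle of the other genes. In pooled oocytes, fewer cells of a type and less RNA per cell cannot be told apart.

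Changes were mostly moderate. All 13 genes past 2-fold (absolute log2 fold change of at least 1) were lower, which is 13% of the 100, where 16.9% of all tested genes were called lower and 15.1% higher past that size. Among tested protein-coding genes 12.3% were called lower and 16.8% higher past it, so the lower share of the 100 was near theirs. In 39 genes the log2 fold change was under 0.25 in size, against 24.6% of tested protein-coding genes. The median standard error was 0.133 for the 100 and 0.215 for protein-coding genes.

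**Figure D2:**
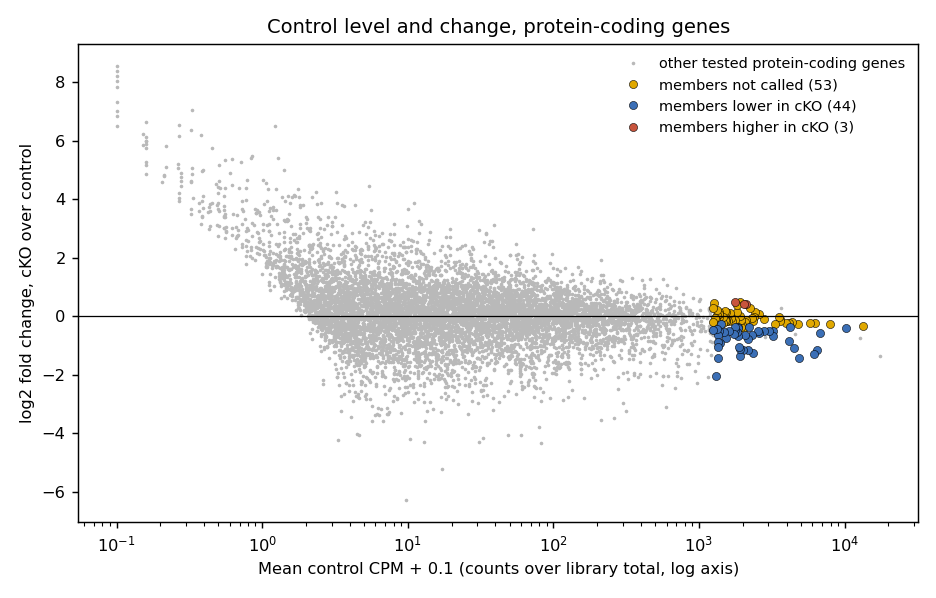
Log2 fold change, cKO over control, against mean control CPM (log axis) for every tested protein-coding gene; the 100 genes are coloured by call. They reach from -2.05 to 0.50, a narrower range than the other genes, and 44 of them are called lower and 3 higher.

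Choosing genes by a high control level favours lower values in the cKO, so the choice and the test were also made on different controls. The 100 genes chosen on controls 1 and 2 had 42 lower and 1 higher with controls 3 and 4 in the test, where 23.6% and 22.8% of all genes were called. Those chosen on controls 3 and 4 had 44 lower and 7 higher with controls 1 and 2, against 25.6% and 22.8%. Of the 44 fallen genes, 39 were lower with either pair of controls, among them all 13 past 2-fold. The 44 and the 13 were picked with all 4 controls and the same cKO libraries, so that overlap is no independent test. Ranked by all 8 libraries, the 100 highest genes, 91 of them shared, had 36 lower and 6 higher. Ranked by the cKO alone, a choice that favours higher values, the 100 highest, 82 of them shared, had 27 lower and 12 higher. Set against the 27.9% lower and 27% higher of all tested genes, the lower genes of this last ranking were at the share of all genes and the higher ones under it. Against the 23.5% lower and 30.4% higher of tested protein-coding genes, the lower ones were a little above and the higher ones again under.

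The share of lower genes went with rank where control levels entered the ranking, a choice that favours lower values in the cKO. By control level, 44% of ranks 1 to 100 were lower and 3% higher, 43.5% and 12.5% of ranks 101 to 300, 32.3% and 18.4% of ranks 301 to 1000, and 24.2% and 28.1% of ranks 3001 to 7000. By the level over all 8 libraries the shares lower were 36%, 33%, 26% and 23.6% in the same ranks, and the shares higher 6%, 22.5%, 25.1% and 31.8%. By cKO level they were 27%, 21%, 19.3% and 22% lower, and 12%, 32.5%, 32.7% and 32.8% higher. Past the first 100 the shares lower by cKO level thus showed no trend, with 20.1% in ranks 1001 to 3000. The power to call also differs with rank: by control level the median standard error was 0.133 in ranks 1 to 100 and 0.246 in ranks 3001 to 7000. Under each of the 3 rankings the first 100 held the smallest share of risen genes of the 5 ranges.

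**Figure D3:**
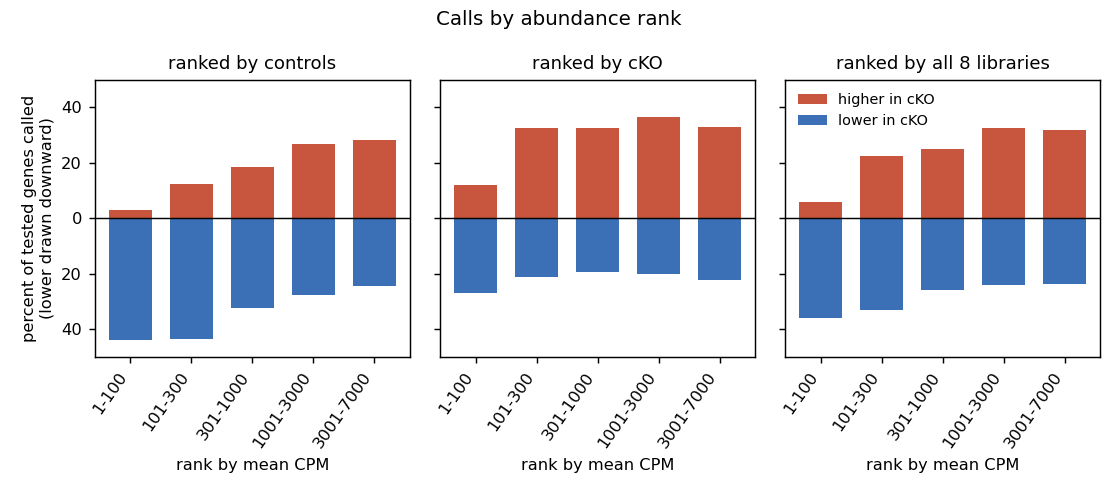
Percent of tested protein-coding genes called higher (upward) or lower (downward) in the cKO, by rank of mean CPM in controls, in the cKO and over all 8 libraries. In each panel the first bar, ranks 1 to 100, has the shortest upward part, 3%, 12% and 6%.

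The order of the stock changed in places. Of the 100 genes, 82 were also among the 100 highest in the cKO and 97 among its 200 highest, and Nlrp9c went lowest, from rank 93 to rank 541. The 18 genes that took their places were chosen by their cKO level, and 9 of them were called higher and none lower. Ppm1h, a protein phosphatase, went from 595.7 ± 67.3 to 1436 ± 84.6 CPM, and Atp6v1b2, a subunit of the vacuolar proton pump, from 495.0 ± 99.0 to 1186 ± 62.6 CPM. Golph3, a Golgi phosphoprotein, went from 642.3 ± 107.2 to 1349 ± 48.1 CPM and Cnot9, a subunit of the CCR4-NOT deadenylase complex, from 819.7 ± 33.6 to 1405 ± 135.1 CPM.

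The 3 genes that rose were Gdpd1, Degs1 and Dppa3. Gdpd1, a phosphodiesterase of glycerophospholipids, measured 1807, 1804, 2343 and 1640.2 CPM in controls 1 to 4 and 2737, 2590.4, 2646 and 2759 CPM in cKO 1 to 4. The cKO libraries were close together and above every control (log2 fold change 0.50, SE 0.12, edgeR adjusted p = 0.00317). Degs1, the desaturase that makes ceramide from dihydroceramide, measured 2131, 2183, 2520.4 and 2143 CPM in controls 1 to 4 and 3077, 3031, 2869 and 3121 CPM in cKO 1 to 4, and rose (log2 fold change 0.43, SE 0.11, edgeR adjusted p = 0.0034). Dppa3, also called Stella, protects DNA methylation in egg and zygote, and measured 2272, 2003, 1829 and 2607 CPM in controls 1 to 4 and 2975, 3108, 2659.9 and 2814 CPM in cKO 1 to 4. The groups of Dppa3 came close but did not meet (log2 fold change 0.41, SE 0.13, edgeR adjusted p = 0.0131). All 3 were called higher in each of the 8 fits that left out 1 library and with controls 1 and 2, and 1 of the 3 with controls 3 and 4. With scaling and test limited to protein-coding genes, Dppa3 was not called.

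The genes were then read by role, from lists and assignments made with earlier results known. Maternal effect genes encode proteins that the egg leaves to the embryo, many of them in the subcortical maternal complex under the egg's membrane. Of the 11 such genes 6 fell and 1, Dppa3, rose, with a median log2 fold change of -0.58. Of the 15 other tested genes of that list 4 fell and 2 rose. Nlrp9c had the largest fall, with 1539.7, 1109.7, 1222 and 1706 CPM in controls 1 to 4 and 403.5, 315.1, 305.7 and 317.9 CPM in cKO 1 to 4. Its cKO libraries stood at 24.1% of control on average, with cKO 1 the highest of them (log2 fold change -2.05, SE 0.16, edgeR adjusted p = 9.31e-08). With last exons left out, on 718 counts, the log2 fold change of Nlrp9c was -0.48 (SE 0.22) and it was not called. Nlrp9b measured 1413, 1246, 1965 and 1177 CPM in controls 1 to 4 and 659.8, 521.2, 415.9 and 579.9 CPM in cKO 1 to 4, and Nlrp9a 2651, 1963, 2826 and 2606 CPM in controls 1 to 4 and 1179, 1045, 873.0 and 1118 CPM in cKO 1 to 4. In both the highest cKO library lay under the lowest control (log2 fold change -1.41, SE 0.18 and log2 fold change -1.25, SE 0.14).

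Nlrp2 had a log2 fold change of -1.05 and went from 2007 ± 561.5 to 966.2 ± 138.6 CPM. Nlrp4f measured 2203, 1497, 3355 and 2219.8 CPM in controls 1 to 4 and 1587, 1225, 1091 and 1535 CPM in cKO 1 to 4. Its groups overlapped, as control 2 lay under cKO 1 and cKO 4 (log2 fold change -0.77, SE 0.20, edgeR adjusted p = 0.00434). Of the 6 Nlrp genes among the 100, 5 fell under every scaling tried. Nlrp14 was not called with TMM, RLE or upper-quartile factors or with library totals. With only controls 3 and 4 in the test, Nlrp14 was called lower (log2 fold change -0.53). Of 5 other tested Nlrp genes 3 fell and Nlrp4c rose from 92.7 ± 13.7 to 216.0 ± 9.96 CPM. Padi6, Tet3 and Zar1l were not called, with log2 fold changes of -0.18, -0.17 and 0.20. Nlrp genes have close copies, as the starts of Nlrp9a and Nlrp9c show, and reads of such copies may be split between them.

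Genes of multicopy oocyte families split. All 3 Oog genes among the 100 fell under every scaling. Oog4 measured 2171, 2008, 1921 and 2379 CPM in controls 1 to 4 and 914.2, 981.5, 753.2 and 1169 CPM in cKO 1 to 4, a fall of the same order as that of Oog3 (log2 fold change -1.15, SE 0.14, edgeR adjusted p = 6.82e-06). Oog2 fell less, from 1894 ± 221.7 to 1363 ± 117.6 CPM (log2 fold change -0.47, SE 0.12), as did Pramef20, a gene of the PRAME family, from 1458 ± 110.8 to 1024 ± 87.2 CPM (log2 fold change -0.51, SE 0.11). The oligoadenylate synthetase genes Oas1c and Oas1d, Gm13084 and Khdc1b were not called, with log2 fold changes between -0.26 and -0.02, the last of which, that of Oas1d, was positive with library totals. Over the 232 other tested genes that the list's name patterns take, 109 fell and 51 rose. Members of these families can be near copies of each other, and their counts may be uncertain for that reason, which was not tested.

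Ubiquitin and protein turnover was the largest role, with 15 genes, of which 8 fell and none rose. Mdm4, which holds p53 in check, measured 2079.8, 1919, 2174 and 1964 CPM in controls 1 to 4 and 789.2, 852.1, 764.8 and 798.0 CPM in cKO 1 to 4. All 4 cKO libraries were far under the controls (log2 fold change -1.34, SE 0.11, edgeR adjusted p = 1.63e-07). Trim61, a RING finger protein, measured 4609, 4283, 5674 and 4767 CPM in controls 1 to 4 and 2788, 2072, 1869.5 and 2398 CPM in cKO 1 to 4 and fell (log2 fold change -1.08, SE 0.14). Trim75 fell from 2485 ± 650.3 to 1580.2 ± 206.4 CPM, and Trim71, an RNA-binding ligase also known as Lin41, from 1644 ± 209.8 to 982.6 ± 22.8 CPM. Kbtbd7 and Kbtbd8, BTB-Kelch adaptors of Cul3 ligases, fell from 1481 ± 234.7 to 793.8 ± 73.4 CPM and from 3422 ± 674.4 to 2165 ± 253.9 CPM. Atg5, of the autophagy conjugation machinery, had a log2 fold change of -0.37 and the polyubiquitin gene Ubb of -0.25.

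The call of Ubb was lost in 5 of the 8 fits that left out 1 library (controls 1 or 2, cKO 1, 2 or 4), with log2 fold changes of -0.29 to -0.23. The 3 ubiquitin-conjugating enzymes Ube2w, Ube2h and Ube2g1 were not called, with log2 fold changes of -0.16, 0.00 and -0.22, nor were Skp1a, Ypel5 and Znrf2. None of these genes was called with RLE or upper-quartile factors or with library totals either. Trim13 (0.30) was not called either, but was called higher with library totals. Of the 282 other tested genes of the list, which held 11 of the 15, 63 fell and 75 rose. Among the 22 other tested Trim genes 6 fell and 11 rose.

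Chromatin and transcription had 11 genes, of which 6 fell and none rose. Taf9b, a factor of the TFIID family, measured 1918, 1785, 2156 and 2256 CPM in controls 1 to 4 and 995.9, 845.9, 862.6 and 1025 CPM in cKO 1 to 4, with no overlap (log2 fold change -1.12, SE 0.12, edgeR adjusted p = 2.59e-06). Kdm6b, a histone H3 lysine demethylase, measured 1451, 1609, 1236 and 1431 CPM in controls 1 to 4 and 811.1, 655.1, 584.7 and 697.5 CPM in cKO 1 to 4 and fell by about the same factor (log2 fold change -1.06, SE 0.13). Polr2d, a subunit of RNA polymerase II, fell from 1979 ± 218.9 to 1228 ± 97.0 CPM. The oocyte homeobox genes Obox5 and Obox2 fell from 3220.4 ± 531.2 to 2250.3 ± 314.3 CPM and from 2199 ± 385.2 to 1429 ± 213.4 CPM under every scaling, and the groups of Obox5 overlapped. Sall4, a zinc finger factor of germ and stem cells, measured 2687, 2184, 2106 and 2390.4 CPM in controls 1 to 4 and 1972, 1916, 1592 and 1773 CPM in cKO 1 to 4 (log2 fold change -0.37, SE 0.12, edgeR adjusted p = 0.0174). Its call was lost without control 1 or cKO 4, with log2 fold changes of -0.42 to -0.31 over the 8 fits, and with last exons left out the log2 fold change of Sall4 was 0.70 (SE 0.31). Klf17, Taf7, Zfp706, Foxn2 and Foxo3 were not called, with log2 fold changes from -0.36 to 0.14. Of the 465 other tested genes of the list, which held 10 of the 11, 103 fell and 164 rose.

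Transport and signalling had 13 genes, of which 5 fell. Gpr1, a receptor for chemerin, measured 2397, 1780.4, 2433 and 2618 CPM in controls 1 to 4 and 1126, 1064, 908.6 and 1019.5 CPM in cKO 1 to 4. It fell to 44.6% of control (log2 fold change -1.16, SE 0.14, edgeR adjusted p = 4.51e-06). Strn, a regulatory subunit of the phosphatase PP2A, measured 4930.2, 3642, 4068 and 4991 CPM in controls 1 to 4 and 2707, 2397, 2324 and 2407 CPM in cKO 1 to 4 and fell (log2 fold change -0.84, SE 0.13). Pkd2l2, a channel of the polycystin family, fell from 1858 ± 167.7 to 1232 ± 66.2 CPM, Laptm4b, a lysosomal membrane protein, from 2718 ± 545.8 to 1909.8 ± 270.6 CPM, and Tmf1, a Golgi protein, from 1329.8 ± 275.7 to 957.3 ± 80.5 CPM. The groups overlapped in the last 2, and with last exons left out Tmf1 had a log2 fold change of 0.52 (SE 0.30) and Strn of 0.18 (SE 0.26). Ywhae, a 14-3-3 protein, Gja4, the connexin of oocyte gap junctions, and Arl6ip1, an endoplasmic reticulum protein, had log2 fold changes of 0.07, -0.06 and -0.12 and were not called. Gja4 and Arl6ip1 were positive with library totals. Of the 604 other tested genes of the list, which held only 4 of the 13, 116 fell and 192 rose. The rest of the 13 were placed by hand.

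Of 8 genes of mRNA storage, decay and translation 2 fell. Ddx3x, an RNA helicase, measured 1521, 1409, 1225 and 1619 CPM in controls 1 to 4 and 978.4, 987.2, 899.0 and 828.5 CPM in cKO 1 to 4 and fell (log2 fold change -0.65, SE 0.12). Nup98, a nucleoporin, fell from 1972 ± 277.3 to 1489 ± 178.9 CPM, a call that was lost without control 1 or cKO 4 (log2 fold changes of -0.47 to -0.33 over the 8 fits). Dazl, which drives translation in germ cells, measured 2559.7, 2401, 2534 and 2797 CPM in controls 1 to 4 and 3217, 2998, 2331 and 2995 CPM in cKO 1 to 4. The 2 ranges of Dazl overlapped (log2 fold change 0.17, edgeR adjusted p = 0.271). Tent5c, a poly(A) polymerase, Paip1, a partner of poly(A)-binding protein, Rbm18, Zcchc10 and Srpk1, a kinase of splicing factors, were not called, with log2 fold changes from -0.20 to -0.10. Of the 206 other tested genes of the list, which held 4 of the 8, 32 fell and 70 rose.

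Of the 8 genes of metabolism and mitochondria 2 rose, Gdpd1 and Degs1, and 2 fell. Mcu, the pore of the mitochondrial calcium uniporter, measured 1250.2, 1369, 1836 and 1319.5 CPM in controls 1 to 4 and 801.6, 767.3, 669.4 and 872.5 CPM in cKO 1 to 4. Each cKO library lay well under the lowest control (log2 fold change -0.89, SE 0.14, edgeR adjusted p = 8.04e-05), while with last exons left out Mcu stood at 0.08 (SE 0.29) on few counts. Bpgm, a mutase of the glycolytic intermediate bisphosphoglycerate, fell from 4509 ± 272.3 to 3481 ± 115.4 CPM. Mat2b, the regulatory subunit of the enzyme that makes S-adenosylmethionine, the methyl donor of m6A, measured 4314, 4134, 4918 and 4236 CPM in controls 1 to 4 and 4031, 3650.1, 3646 and 3689 CPM in cKO 1 to 4. The groups did not overlap, yet the difference was not called (log2 fold change -0.23, edgeR adjusted p = 0.0853). Sdhd, a subunit of respiratory complex II, had a log2 fold change of 0.06, and Atad1 and Insig1 were not called either. Of the 192 other tested genes of the list, which held only 1 of the 8, 33 fell and 50 rose. The rest of the 8 were placed by hand.

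In the cytoskeleton 2 of 6 genes fell, Tpgs2, of the tubulin polyglutamylase complex, from 1585 ± 113.1 to 1091 ± 86.3 CPM, and Map1b, a microtubule-associated protein, from 1411 ± 186.2 to 1043 ± 222.4 CPM. The call of Map1b was lost in 4 of the 8 fits that left out 1 library (control 1, cKO 2, 3 or 4), with log2 fold changes of -0.55 to -0.34, and its log2 fold change was 0.32 (SE 0.18) with last exons left out. The beta-tubulins Tubb4b and Tubb6 and Actr2, of the Arp2/3 complex, had log2 fold changes of -0.04, 0.38 and -0.01. With library totals all 3 were positive and Tubb6 was called higher. Of the 134 other tested genes of the list, which held 4 of the 6, 33 fell and 42 rose.

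Rgs2, a regulator of G protein signalling, measured 2849.8, 2050.4, 3116 and 3061 CPM in controls 1 to 4 and 2022, 1828, 1553 and 1997 CPM in cKO 1 to 4, with the highest cKO library just under the lowest control (log2 fold change -0.58, SE 0.14, edgeR adjusted p = 0.00307). The other 2 genes placed with the meiotic cell cycle, the cohesin release factor Wapl and the GTPase Cdc42, were not called. Among the 4 secreted and surface genes Plat, the tissue plasminogen activator, fell from 3425 ± 768.3 to 2418 ± 368.6 CPM, with overlapping groups, a call that was lost without cKO 2 (log2 fold changes of -0.61 to -0.34 over the 8 fits). Jag1, a Notch ligand, Cd164, a sialomucin, and Rspo2, an activator of Wnt signalling, were not called. St13 and Vbp1, chaperone cofactors, were not called either (log2 fold change 0.45, edgeR adjusted p = 0.0554 and log2 fold change 0.29, edgeR adjusted p = 0.0757). Of genes placed in no role, Ccdc69 fell from 2959.8 ± 278.5 to 2068 ± 262.3 CPM, Cmya5 from 1709 ± 117.3 to 1211 ± 75.0 CPM and Dazap2 from 1876 ± 140.5 to 1469 ± 24.9 CPM (0.08 on the log2 scale, SE 0.18, with last exons left out), and Jpt2 fell from 1940.4 ± 598.9 to 1326 ± 175.9 CPM, a call that was lost without control 3 or cKO 2 (log2 fold changes of -0.69 to -0.33).

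**Figure D4:**
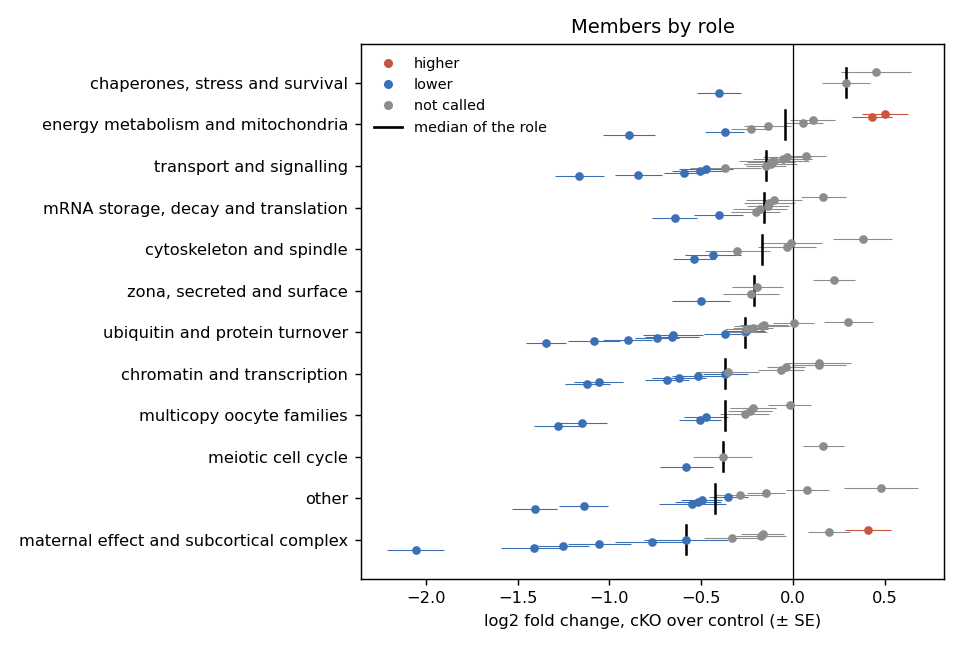
Log2 fold change (cKO over control, points) with its standard error (bars) for each of the 100 genes, grouped by role and coloured by call. The maternal effect group has the lowest median, -0.58, and holds both Nlrp9c at -2.05 and the risen Dppa3 at 0.41.

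These levels rest on few exons. In 90 of the 100 genes the exon with the most counts was the last exon of every transcript that holds it, against 75.0% of tested protein-coding genes, and a median of 99.2% of a gene's counts lay on its leading exon. The deposited counts leave out reads that meet more than 1 exon ID, so the level of such a gene is mostly that of its last exon. In 9 genes most counts lay on other exons: Nlrp14, Nlrp9a, Nlrp9b, Nlrp2, Nlrp4f, Oog4, Pkd2l2, Enox1 and Zar1l. Of these, 6 were lower with and without last exons. With last exons left out, 65 of the 100 genes could still be tested, and 14 of them were lower and 6 higher, where 23.8% and 23.2% of the genes tested there were. Their median log2 fold change was -0.09. That fit had its own filter and TMM scaling, so its values are not on the same scale as those with all exons. Oog4 and Nlrp2, with 0% of counts on last exons, moved upward in it, from -1.15 to -0.99 and from -1.05 to -0.87. Values near 0 and turned signs without last exons are to be read with that shift.

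Of the 44 fallen genes 31 could be tested without last exons. On the other exons 13 were lower, 18 were not called and none was higher, and 7 of the 31 had a positive log2 fold change. Among the 13 were the 6 lower genes with most counts on other exons. Fewer counts remain there, a median of 2331 over all 8 libraries together. Nlrp9b, Nlrp9a, Nlrp2, Oog3 and Oog4 were lower there too, with log2 fold changes of -1.23, -1.08, -0.87, -1.02 and -0.99. Of these, only Oog3 had most of its counts on last exons (65.9%). Strn and Mcu, which fell by 0.84 and 0.89 on the log2 scale with all exons, stood at 0.18 (SE 0.26) and 0.08 (SE 0.29) on 180 and 253 counts. Gdpd1 and Dppa3 were higher without last exons as well. Zar1l, Ypel5, Tiparp and Insig1 were called higher and Rspo2 lower there, although none of these 5 was called with all exons.

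**Figure D5:**
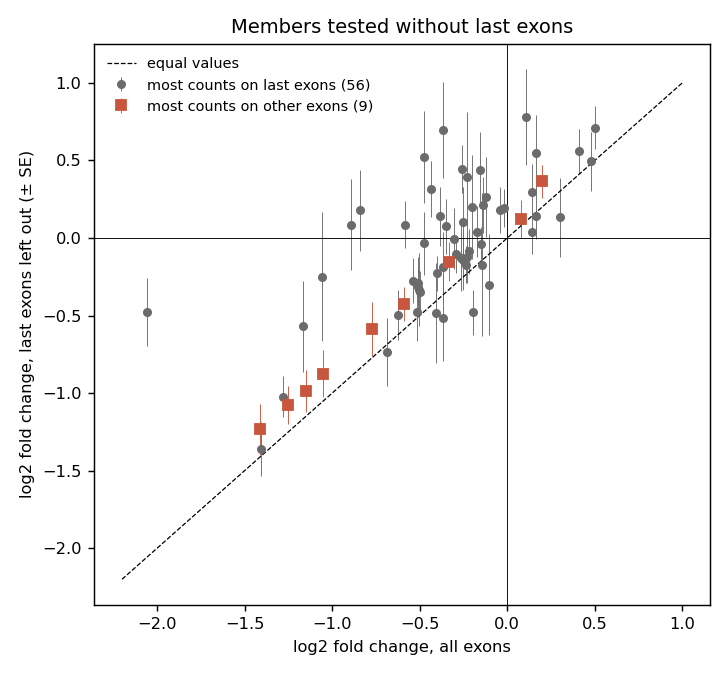
Log2 fold change with last exons left out (± SE, vertical) against that with all exons (horizontal) for the 65 genes that could be tested both ways; squares are the 9 genes with most counts on other exons. The squares lie a little above the line of equal values, and 7 fallen genes lie above 0 on the vertical axis. The fit with last exons left out has its own filter and scaling.

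Where in a gene its counts fell was not used to choose the genes. Of 64 genes with at least 2 tested exons 21 (32.8%) changed in exon usage (edgeR diffSpliceDGE, adjusted p under 0.05), where 23.6% of all 2847 genes tested did. The genes were chosen for high counts, however, which gives more power to call a change in an exon of small share. The shares were not matched for counts, so they cannot tell whether usage changed more often in these genes. In 20 of the 21 the usage of the leading exon changed by under 0.25 on the log2 scale, and it was minor exons that differed. Of the 21, 13 were lower at gene level and none higher. The 6 genes of smallest p were Gm13084, Enox1, Nlrp2, Bpgm, Ccdc69 and Oog2.

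A noncoding last exon of Gm13084 went from 32.6 ± 6.80 to 1.39 ± 0.688 CPM (chromosome 4, 143812357 to 143812891, mm10), while its main last exon stood at 3897 ± 515.8 and 3509 ± 185.6 CPM (gene-level adjusted p = 3.24e-14, edgeR). In Bpgm a noncoding last exon (chromosome 6, 34487290 to 34489083) went from 10.7 ± 1.12 to 1.30 ± 0.480 CPM, beside a main last exon with 99.8% of the tested counts in controls. In Ccdc69 the less used last exon (chromosome 11, 55050730 to 55051249) went from 37.9 ± 9.85 to 4.12 ± 1.82 CPM. In Oog2 a noncoding last exon (chromosome 4, 144193442 to 144194060) went from 9.05 ± 1.17 to 0.957 ± 0.674 CPM. In each of these 4 the exon that lost usage was a lesser last exon. The lesser exons of Gm13084, Bpgm and Oog2 were kept by the count filter through the controls, where they were higher. Their cKO levels rest on few counts, as 3 counts are 0.59 to 0.68 CPM in cKO libraries. Over the 13 genes with changed usage and a tested lesser last exon, that exon (the one of smallest p) had lower usage in 5 and higher usage in 8, as in Cdc42, where it went from 52.8 to 136.3 CPM.

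Enox1, a cell surface oxidase, went the other way at its end. Its last exon (chromosome 14, 77720813 to 77721760) went from 57.5 ± 12.8 to 186.5 ± 21.8 CPM, which is 4.06% and 12.2% of its tested counts, while the gene's level was not called (log2 fold change 0.08, edgeR adjusted p = 0.601). In Nlrp2 an internal exon of 60 bases (chromosome 7, 5332960 to 5333019) went from 2.61 ± 0.954 to 15.7 ± 3.15 CPM while the gene fell. Nlrp9c held most of its counts on a noncoding last exon (chromosome 7, 26377150 to 26378172), which went from 1164 ± 233.2 to 198.1 ± 27.6 CPM. Its coding last exon (26364691 to 26365037) went from 204.9 ± 38.9 to 121.3 ± 14.8 CPM and rose from 14.7% to 36.5% of the tested counts. This was the 1 gene of the 21 whose leading exon changed in usage by more than 0.25.

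The libraries of a group were not equally spread. The median coefficient of variation over the 100 genes was 15.1% in controls and 8.85% in the cKO, and it was larger in controls in 84 genes, where this held in 68.8% of tested protein-coding genes. Control 3 was the highest control in 53 genes and control 2 the lowest in 47. Control 3 was highest and control 4 lowest in 22 genes, as in Surf4, a cargo receptor of the endoplasmic reticulum, with 1764, 2321, 2919 and 1289 CPM in controls 1 to 4 and 1797, 1397, 1633 and 1593 CPM in cKO 1 to 4. Control 4 was highest and control 2 lowest in 25 genes, as in Paip1, with 3982, 3049, 3632 and 4771 CPM in controls 1 to 4 and 4452, 3424, 2916 and 3566 CPM in cKO 1 to 4. The deviations of controls 3 and 4 from the control mean had a Pearson r of -0.78 over the 100 genes, and those of controls 1 and 4 one of 0.60. Deviations from a mean of 4 tend to be negatively related by construction, and the genes share libraries and depth. In the cKO, replicate 1 was highest in 55 genes and replicate 3 lowest in 59. Without control 3 the counts were 46 lower and 7 higher, where 27% and 27.5% of all tested genes were, and without control 4 they were 46 and 6, against 26.7% and 25.6%.

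Compared with tested protein-coding genes the 100 genes had shorter coding sequences. Reference transcripts were found for 98 of them, with a median coding length of 1083 bases against 1347 over 7457 genes, 6 exons against 8, and a 3' UTR of 1359.5 bases against 1210.0. Their transcripts had 44.8% GC against 48.3%, and 0.775 GGACT per kilobase, the commonest form of the m6A consensus, against 1.00. TTTTAT or TTTTAAT, forms of the cytoplasmic polyadenylation element, stood in the last 100 bases of 31 of 96 transcripts (32.3%) against 20.1%. The fallen and the other genes among the 100 had medians of 0.844 and 0.733 GGACT per kilobase over the whole transcript, and of 0 and 0.536 over the 3' UTR, so the order turned with the stretch counted. Across the 98 genes the log2 fold change and coding length had a Spearman rho of -0.30 and, with GGACT per kilobase, of -0.10. Over all 7457 genes these were -0.03 and -0.00. Genes are not independent replicates, and lengths also set what is counted.

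Libraries held 4235691 to 4775924 matched exon counts in controls and 4389576 to 5052551 in the cKO. Oocyte markers were present in every library. Summed over 9 genes they reached 5488 to 6321 CPM per control library and 5736 to 7134 CPM per cKO library. Most of these sums came from 2 genes that are among the 100, Dppa3 and Dazl. Dppa3 averaged 2178 CPM over controls and 2889 CPM over cKO libraries, and Dazl 2573 and 2885 CPM. Of the 9 markers 1 was called higher, Dppa3, and 2 lower, Zp1 and Ddx4 (log2 fold changes of -0.46 and -1.14). The 16 cumulus and granulosa markers summed to 233.6 to 394.5 CPM in controls and 452.9 to 743.7 CPM in the cKO, with 4 of the 9 tested higher, 2 lower and Nr5a1 at 0 throughout. Most of that cKO sum was Nr5a2 and Inha, which went from 138.7 to 322.8 CPM and from 66.1 to 173.5 CPM. The 2 lower ones were Fshr (19.6 to 6.25 CPM) and Cyp19a1 (27.4 to 12.6 CPM). The 8 immune and blood markers summed to 0.239 to 1.55 and 5.52 to 9.46 CPM, with 5 of the 8 at 0. Most of that sum in the cKO was C1qa, which went from 0.177 to 7.0 CPM, while Lyz2 stood at 0.350 and 0.264 CPM. Theca and vessel markers stayed under 14 CPM in every library. Reads outside every exon ID were 9.86% to 12.0% in controls and 5.01% to 6.19% in the cKO. Reads on more than 1 exon ID, which are not counted, were 72.9% to 75.4% in controls and 78.8% to 80.4% in the cKO. Both are shares of reads on 1 exon ID, on more than 1 or on none. The part of these differences in the levels above was not tested.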

How the data were processed

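Counts are whole numbers per exon ID, as the authors deposited them, in 1 file for each of 8 libraries. The submitters' processing notes name STAR, HTSeq and mm10. Versions and options were not given in the sources used here. Per the labels' protocols, libraries were made with oligo-dT priming, template switching, amplification and tagmentation, which do not mark strand, and sequenced as pairs. A file holds 496288 exon IDs, and its 5 summary rows, which belong to no exon, stayed out of library sizes and tests. Shares here are of reads on 1 exon ID, on more than 1 or on none, and leave out the other summary rows. Reads on more than 1 exon ID are ambiguous and enter no exon count. They were 72.9% to 75.4% in controls and 78.8% to 80.4% in the cKO, so the groups did not overlap, and 14.6% to 15.6% were counted. Short or overlapping exons are therefore undercounted, and 76.9% of counts lie on last exons. Amplified reads are not independent molecules.

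GENCODE M21 (mm10) gave gene and transcript for 494230 exon IDs (99.6%), versions ignored, and the rest held 0.252% of counts. Gene counts are sums over exon IDs. Genes kept by filterByExpr (minimum count 10) were normalised with TMM factors. Groups were compared with edgeR 4.0.16 in R 4.3.3 (quasi-likelihood test, two-sided, group as the only term) with Benjamini-Hochberg adjustment over all tested genes at 0.05. The choice of genes used CPM over library totals; printed levels are TMM-scaled CPM. The standard error is the log2 fold change over the root of F. For exon usage, edgeR's diffSpliceDGE was run on genes with at least 2 kept exons. DESeq2 1.42.0 and limma 3.58.1 were alternatives. The scripts were tested on simulated data. Countable bases are exon bases that no other exon ID overlaps. Promoters are RefSeq's windows on GRCm38.p6.

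The genes, lists and roles were chosen with earlier results of these data known. Named are Virma, the 10 genes of highest control level, the called genes without overlap of largest change (10 each way, of which 3 rose), the 3 on either side of the limit, the 4 highest of each role list and the 6 of smallest p for exon usage; other genes were named after their values were seen. Roles of genes on no list were assigned by hand.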

Additional observations from a re-analysis of the deposited data

Results flagged for a closer look

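In 3 groups of 4 libraries, the gap between 1 library and the nearest of the other 3 was past the 95% critical value of Dixon's test. Degs1 stood at 2520 CPM in control 3, where the other controls lay between 2131 and 2183 CPM. Oas1c stood at 4472 CPM in control 3, against 3135 to 3338 CPM in the other controls. Nlrp9c stood at 403.5 CPM in cKO 1, against 305.7 to 317.9 CPM in the other cKO libraries. These are 3 of 108 groups looked at (2.78%), and chance gives about 5%.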

How the results depend on the processing

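The 44 lower genes ranged from 39 to 49 and the 3 higher from 3 to 7 when each library was left out in turn, and 37 of the 44 and all 3 were called in each of these fits. RLE and upper-quartile factors, scaling without the 100 genes, DESeq2, and leaving out exons that overlap another gene gave 43 or 44 lower and 3 higher, and scaling and testing protein-coding genes only gave 54 lower and 2 higher. Higher genes numbered 13 with library totals, 6 with no filter on low counts, 6 with last exons left out and 0 at a 2-fold limit. Lower genes numbered 14 of the 65 that could be tested with last exons left out, where 18 of 31 tested lower genes lost the call, and 13 at that limit. Other choices of genes gave 21 lower (50 highest), 11 higher and 96 lower (200 highest), 6 higher (all 8 libraries), 12 higher and 27 lower (cKO), 5 higher and 52 lower (per kilobase), 1 higher (chosen on controls 1 and 2) and 7 higher (chosen on controls 3 and 4). The 100 genes as chosen had 1 higher with controls 3 and 4 and 6 with controls 1 and 2, which was tried after seeing the data.

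Titles number the replicates 1 to 4 in both groups, but the labels tie no number to an animal or day. Same-numbered libraries deviated together with r of 0.11, -0.06, 0.10 and 0.06, and 2 of 4 controls correlated best with their own. With so few libraries these values cannot settle whether same-numbered libraries share an experiment. With the number as a replicate block there were 6 higher and 43 lower, and 23 in place of 21 with changed exon usage, which lay between 17 and 23 over all its alternatives.

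No called gene among the 100 was called the other way in any refit of the same 100. Over the 100, signs turned in 17 genes with library totals, in 18 of 65 with last exons left out and in 11, none of them called, in a fit without 1 library. The values are given for the 54 genes followed under every setting, which include some outside the 100. Among them signs turned with library totals in Actr2 (0.15), Arl6ip1 (0.043), Gja4 (0.11), Rbm18 (0.035), Tubb4b (0.13) and Ube2w (0.00288). They turned with last exons left out in Bmp2k (0.25), Map1b (0.32), Pcgf6 (0.53), Sall4 (0.70), Skp1a (0.10), Spry4 (0.16), Tmf1 (0.52), Ube2w (0.44), Ypel5 (0.44), Zbed3 (0.085) and Zcchc10 (0.20). Without exons overlapping another gene Bmp2k was 0.22. With protein-coding genes only, Enox1 was -0.012, Sdhd -0.031 and Ywhae -0.016. Actr2 was 0.00285 with no filter and 0.015 with the block. With 1 library left out Actr2 lay between -0.12 and 0.14, Arl6ip1 between -0.20 and 0.00156, Gja4 between -0.21 and 0.13 and Tubb4b between -0.17 and 0.15. The fit with last exons left out had its own filter and scaling, and Oog4 and Nlrp2, with 0% of counts on last exons, moved upward in it too. The cause was not tested.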
